A study of Mus musculus with 6 samples.

Results

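Carbonic anhydrases and the carriers that export acid or lactate were followed in 4T1-tetL1(GLucAI) cells, mouse breast carcinoma cells with an inducible LINE-1 (L1) retrotransposon. The group was set by gene symbol and holds 8 of the 24421 genes in the count table. These are the carbonic anhydrases Car2, Car9, Car12 and Car13, the lactate carriers Slc16a1 and Slc16a3, their partner protein Bsg and the bicarbonate importer Slc4a7. Total RNA was sequenced from 3 untreated libraries and from 3 libraries collected after 48 h in 400 ng/mL doxycycline. All 6 came from a single stable population, strain label BALB/cfC3H, with a PiggyBac-inserted cassette, so the untreated cells also carry it and its Tet-On transactivator, which has a constitutive EF1α promoter. Doxycycline switches on a recoded mouse L1 with a Gaussia luciferase retrotransposition reporter and, from the same inducible promoter, firefly luciferase. The treatment tag calls the untreated group vehicle. Effects of doxycycline itself and of L1 induction cannot be told apart in this design. The gene counts hold no transcript of the cassette, so the labels could not be checked against it.

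Tumor cells that burn glucose to lactate must remove acid. Slc16a1 (MCT1) and Slc16a3 (MCT4) carry lactate together with a proton across the plasma membrane, and Bsg (basigin, CD147) is the glycoprotein that brings these carriers to the cell surface. Carbonic anhydrases interconvert carbon dioxide and bicarbonate. Car9 and Car12 are membrane enzymes with the active site outside the cell, and Car2 and Car13 are cytosolic. Slc4a7 (NBCn1) imports bicarbonate with sodium and so neutralizes acid inside the cell. Car9 and Slc16a3 are known in many tumor types as targets of the hypoxia-inducible factor HIF-1, which binds a short DNA element with the core ACGTG or GCGTG.

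The start regions of Car9 and Slc16a3 are shown because both genes are known HIF-1 targets, and that of Car12 because it is the other membrane carbonic anhydrase among the members. RefSeq start regions (GRCm38.p6, 250 bases before to 50 bases after the start) were matched for Car9, Car12, Slc16a1, Slc16a3 and Slc4a7, which is 5 of the 8 genes. The table holds 1 start for each, which need not be the first. Counted from the first base of the gene in RefSeq, it lies 0 bases downstream for Car9 and Slc16a1, 1390 for Car12, 583 for Slc16a3 and 15773 for Slc4a7, so the last 3 are internal starts and other starts of these genes were not searched. In GENCODE M21 the Car12 start is the first base of the gene. Sequences run 5′ to 3′ on the plus strand, which is the coding strand of each gene, and capitals mark every ACGTG on either strand (on the minus strand it reads CACGT). No GCGTG occurs in these 3 stretches.
Car9, chr4:43506776-43507075: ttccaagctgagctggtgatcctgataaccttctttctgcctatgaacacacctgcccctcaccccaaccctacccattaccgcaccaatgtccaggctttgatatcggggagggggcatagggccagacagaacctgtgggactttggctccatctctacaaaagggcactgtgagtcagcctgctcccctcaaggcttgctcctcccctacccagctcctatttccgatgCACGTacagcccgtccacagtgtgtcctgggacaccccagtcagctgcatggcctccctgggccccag
Car12, chr9:66713436-66713735: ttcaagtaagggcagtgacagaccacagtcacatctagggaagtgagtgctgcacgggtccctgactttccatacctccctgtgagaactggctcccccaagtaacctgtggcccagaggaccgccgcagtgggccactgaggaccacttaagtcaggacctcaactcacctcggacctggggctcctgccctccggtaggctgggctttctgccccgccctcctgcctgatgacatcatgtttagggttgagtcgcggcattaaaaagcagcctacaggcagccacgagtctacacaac
Slc16a3, chr11:120948817-120949116: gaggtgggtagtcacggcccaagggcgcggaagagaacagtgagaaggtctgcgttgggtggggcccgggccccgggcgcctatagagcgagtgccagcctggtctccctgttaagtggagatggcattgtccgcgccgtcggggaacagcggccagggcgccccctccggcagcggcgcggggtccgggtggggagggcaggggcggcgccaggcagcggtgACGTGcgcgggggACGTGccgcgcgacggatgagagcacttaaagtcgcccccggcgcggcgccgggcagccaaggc

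The Car9 stretch holds 1 ACGTG, on the minus strand, whose leftmost base lies at position -18 from the start. The Slc16a3 stretch holds 2, both on the plus strand, at positions -27 and -14. Positions count from the start of each stretch, which for Slc16a3 is the internal start at 120949067. Neither core occurs in the Car12 stretch or in the stretch at the internal Slc4a7 start (chr14:14718534-14718833). The Slc16a1 stretch (chr3:104638414-104638713) holds ACGTG 3 times, at -200 and -199 as overlapping matches on opposite strands and at 21, and GCGTG 2 times, at -149 and -134. Of 32851 start regions of the same length, 19.6% hold ACGTG and 43.8% hold ACGTG or GCGTG. A match describes the letters in the window and does not show that a factor binds there.

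Car9 was the member with the clearest difference. It stood at 6.81, 5.25 and 7.56 CPM (the count relative to the library total after TMM scaling) in untreated replicates 1 to 3 and at 3.81, 3.72 and 3.21 CPM in doxycycline replicates 1 to 3. All 3 doxycycline libraries lay below all 3 untreated libraries, and untreated replicate 2 was the untreated library nearest to them. Means were 6.54 ± 1.18 and 3.58 ± 0.321 CPM (SD, n = 3 each), so Car9 RNA fell by 45.4%. The fitted log2 fold change was -0.87 with a standard error (SE) of 0.16 and an adjusted p of 0.00212 (edgeR quasi-likelihood test, Benjamini-Hochberg over all 13084 tested genes). Its 95% interval ran from -1.20 to -0.55. By fold change Car9 ranked 100th from the lowest of the tested genes. The call held in each of the 16 alternative analyses, with log2 fold changes from -1.003 without untreated replicate 2 to -0.759 without untreated replicate 3. Car9 (chromosome 4, 43506966 to 43513729, plus strand, protein-coding, GENCODE M21 on GRCm38) shares 214 exonic bases with the antisense gene Gm12454. The strand setting of the counting is not given in the sources used here, so reads of that partner could have been counted as Car9.

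**Figure D1:**
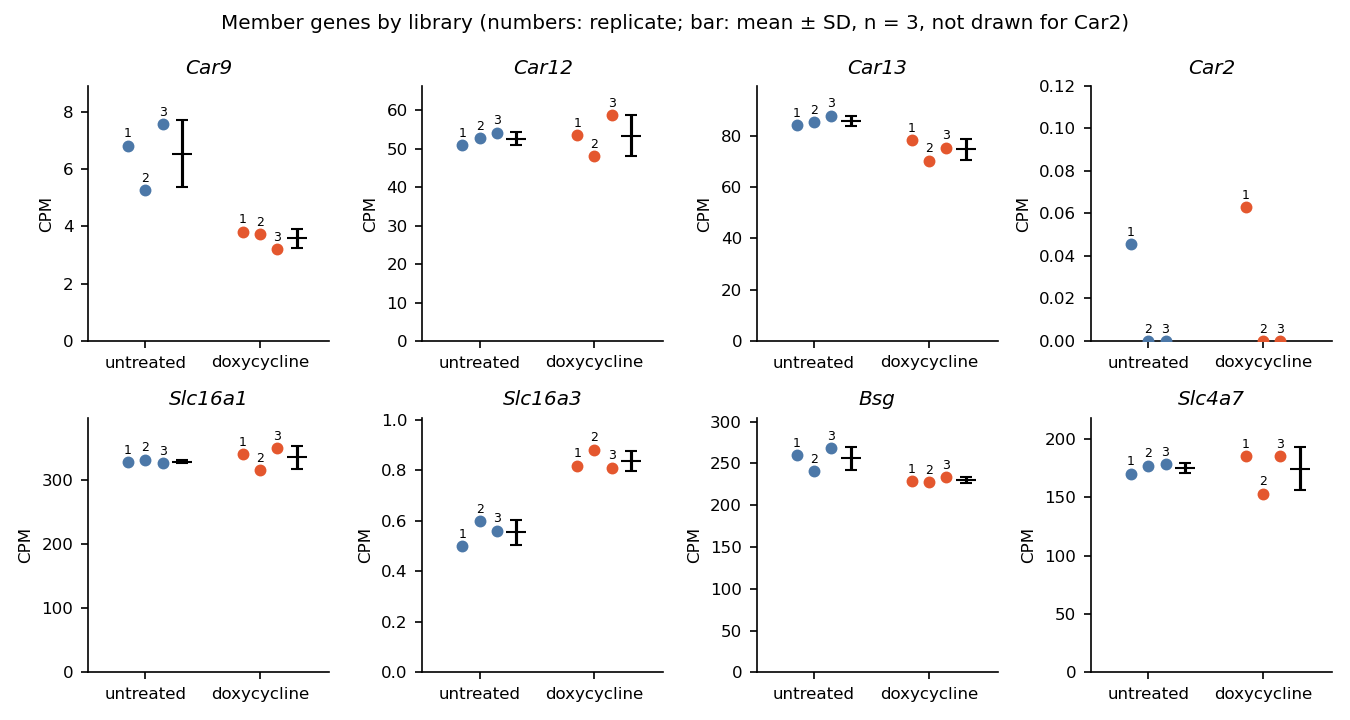
Each panel plots the CPM of a member gene in the 3 untreated (blue) and 3 doxycycline (orange) libraries on an axis that starts at 0. The replicate number is above each point and the mean ± SD beside the points, except for Car2, where no mean is drawn. The Car9 points of the groups are apart, at 5.25 to 7.56 and 3.21 to 3.81 CPM, and Car2 does not exceed 0.0629 CPM in any library.

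Car12, the other membrane enzyme, was higher in level than Car9 and did not differ detectably between the groups. It had 50.9, 52.8 and 54.2 CPM in untreated replicates 1 to 3 and 53.5, 48.1 and 58.7 CPM in doxycycline replicates 1 to 3. The doxycycline libraries spread around the untreated ones on both sides. The fitted log2 change was 0.02 ± 0.07 (SE), at an edgeR adjusted p of 0.917, with a 95% interval from -0.12 to 0.16 that leaves out a change of the size seen for Car9. Within each library the log2 ratio of Car9 to Car12 CPM was -2.90, -3.33 and -2.84 in the untreated libraries and -3.81, -3.69 and -4.19 in the doxycycline libraries. The ranges did not overlap, and the mean ratio was lower by 0.87 log2 units after doxycycline (-3.03 ± 0.27 against -3.90 ± 0.26, SD). The exact two-sided permutation p was 0.1, the smallest that 3 against 3 libraries allow, which groups without overlap always reach. With no detectable change in Car12, the ratio largely repeats the Car9 difference. Car12 lies on chromosome 9 (66713686 to 66766845, plus strand, protein-coding).

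Car13, a cytosolic enzyme encoded on chromosome 3 (14641727 to 14663002, plus strand, protein-coding), was lower by a small amount. It had 84.1, 85.2 and 87.9 CPM in untreated replicates 1 to 3 and 78.3, 70.3 and 75.4 CPM in doxycycline replicates 1 to 3. The groups did not overlap, although untreated replicate 1 and doxycycline replicate 1 were close. Car13 fell by 13% (log2 fold change -0.20 ± 0.05 SE, 95% interval -0.31 to -0.09, edgeR adjusted p 0.0465). This call lay at the threshold. It was lost without untreated replicate 1, 2 or 3 (edgeR adjusted p 0.119, 0.142 and 0.244) and without doxycycline replicate 2 or 3 (0.056 and 0.132). Only leaving out doxycycline replicate 1 kept it among the 6 fits with a library removed (0.0168). The log2 fold change stayed between -0.24 and -0.16 in these fits. With the replicate number as a block the adjusted p was 0.0501.

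Car2, a cytosolic enzyme common in many tissues, was nearly absent from these cells. It had 2, 0 and 0 counts in untreated replicates 1 to 3 and 2, 0 and 0 counts in doxycycline replicates 1 to 3. These values are under the floor of 3 counts, which corresponds to 0.0683 to 0.0944 CPM depending on the library and covers counting error only. Car2 was left out by the filter on low counts, so no fold change is given. It lies on chromosome 3 (14886273 to 14900770, plus strand, protein-coding), in the same cluster as Car13.

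Of the lactate carriers, Slc16a1 was abundant and level between the groups. It had 328, 332 and 327 CPM in untreated replicates 1 to 3 and 341, 316 and 350 CPM in doxycycline replicates 1 to 3. The untreated libraries lay within 5 CPM of each other, inside the range of the doxycycline libraries. The fitted log2 change was 0.03 ± 0.05 (SE), at an edgeR adjusted p of 0.832, with a 95% interval from -0.07 to 0.12. Slc16a1 lies on chromosome 3 (104638668 to 104658462, plus strand, protein-coding).

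Slc16a3, the carrier usually linked to strongly glycolytic cells, was barely detected. Its counts were 22, 20 and 21 in untreated replicates 1 to 3 and 26, 36 and 31 in doxycycline replicates 1 to 3, or 0.501, 0.60 and 0.561 CPM against 0.818, 0.882 and 0.810 CPM. Every doxycycline library lay above every untreated library. The difference did not pass the threshold (log2 fold change 0.60 ± 0.34 SE, edgeR adjusted p 0.408), and its 95% interval from -0.11 to 1.31 reached from a slight fall to more than a doubling. It did not pass in any alternative that gave an adjusted p, and DESeq2 gave none for this gene. Within each library the log2 ratio of Slc16a3 to Slc16a1 CPM was -9.36, -9.12 and -9.19 in untreated cells and -8.70, -8.48 and -8.76 after doxycycline. That ratio was higher by 0.57 log2 units, again without overlap, so the exact two-sided permutation p had its smallest possible value, 0.1. With Slc16a1 level, the ratio largely repeats the uncalled Slc16a3 difference and is no separate result. Slc16a3 lies on chromosome 11 (120948480 to 120960868, plus strand, protein-coding).

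Bsg had the highest level per length of the 8 genes. It stood at 260, 241 and 268 CPM in untreated replicates 1 to 3 and at 229, 228 and 234 CPM in doxycycline replicates 1 to 3. All doxycycline libraries were below all untreated ones, with untreated replicate 2 the nearest. The log2 fold change was -0.15 (SE 0.05, 95% interval -0.25 to -0.05), short of the threshold at an edgeR adjusted p of 0.0875. Bsg passed it without a filter on low counts (adjusted p 0.0426), with a correction for GC content and transcript length (0.0209) and without doxycycline replicate 2 (0.0205), at log2 fold changes of -0.16, -0.15 and -0.15. Bsg lies on chromosome 10 (79704491 to 79711969, plus strand, protein-coding).

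Slc4a7 did not differ detectably. It had 170, 177 and 178 CPM in untreated replicates 1 to 3 and 185, 153 and 185 CPM in doxycycline replicates 1 to 3. Doxycycline replicate 2 was the lowest of all 6 libraries, while doxycycline replicates 1 and 3 were the highest. The log2 fold change was -0.01 (SE 0.06, 95% interval -0.13 to 0.12, edgeR adjusted p 0.977). Leaving out doxycycline replicate 2 gave 0.08 (edgeR adjusted p 0.268). Slc4a7 lies on chromosome 14 (14702279 to 14799940, plus strand, protein-coding).

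**Figure D2:**
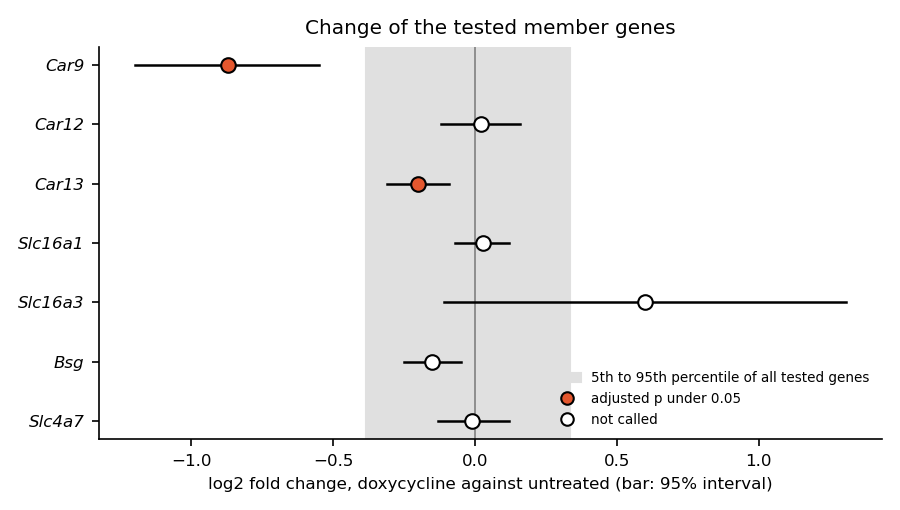
The plot gives the log2 fold change of each tested member, doxycycline against untreated, with its 95% interval as a bar, filled where the adjusted p was under 0.05. The grey band spans the 5th to the 95th percentile of all tested genes (-0.39 to 0.34), and only the Car9 interval lies wholly outside it.

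Of the 7 members tested, 2 were called lower (Car9 and Car13) and 0 higher. Over all 13084 tested genes 2.16% were called lower and 0.925% higher, so 70% of the calls were lower. The correction for GC content and length raised both counts, from 121 to 382 higher and from 283 to 426 lower, which put the share of lower calls at 52.7%. By position of the libraries alone, Car9, Car13 and Bsg had all doxycycline libraries below all untreated ones, as did 11.1% of the tested genes, and Slc16a3 had all above, as did 10.1%. At an unadjusted p under 0.05 there were 3 members, the third being Bsg, where 16.2% of all tested genes lay under it. The members were picked with earlier results of these data known, so their counts are a description of these 8 genes. Over all tested genes the log2 fold changes had a median of 0.002.

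The order of the levels per length was the same in both groups. In CPM per kilobase of the longest annotated coding transcript, untreated cells had 168 ± 9.23 for Bsg, 74.4 ± 0.638 for Slc16a1 and 37.3 ± 0.858 for Car13 (SD, n = 3). Slc4a7 followed at 21.5 ± 0.515 and Car12 at 14.2 ± 0.448. Car9 came next at 3.23 ± 0.583 and Slc16a3 at 0.128 ± 0.0115, with Car2 at the floor. In doxycycline cells the same values were 151 ± 1.98, 75.8 ± 4.08, 32.5 ± 1.76, 21.5 ± 2.31, 14.4 ± 1.43, 1.77 ± 0.159 and 0.193 ± 0.00908. The libraries of neighbouring genes in this order did not overlap in either group. Levels per length depend on which transcript is used, and the cells may not use the longest.

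Within the carbonic anhydrase family, 7 of 16 genes passed the filter, and 3 of them are members. Car13 made up 56.4 ± 1.23% of the summed CPM per kilobase of the family in untreated cells, Car12 21.4 ± 0.721% and Car9 4.87 ± 0.746% (SD, n = 3). After doxycycline these shares were 55.5 ± 0.851%, 24.6 ± 1.51% and 3.03 ± 0.362%. The Car9 share ranged from 4.04 to 5.48% untreated and from 2.64 to 3.36% after doxycycline. The Car12 share ranged from 20.7 to 22.2% and from 23.6 to 26.3%, so neither share overlapped. A share also moves with the rest of the family, and the Car12 level itself did overlap (13.7 to 14.6 and 12.9 to 15.8 CPM per kilobase). The family sum was 66.1 ± 1.97 against 58.5 ± 3.22 CPM per kilobase. Car5b, a mitochondrial carbonic anhydrase and the highest of the others in CPM, had 34.1 ± 3.82 CPM against 28.5 ± 1.93 (log2 fold change -0.27 ± 0.08 SE, edgeR adjusted p 0.0809).

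Among 14 Slc16 carriers, Slc16a1 held 77.2 ± 0.567% of the summed CPM per kilobase in untreated cells and 77.0 ± 1.31% after doxycycline. Slc16a3 held 0.133 ± 0.0121% and 0.196 ± 0.0182%, the smallest share of the 9 carriers that passed the filter. In the Slc4 family of bicarbonate transporters Slc4a7 held 49.6 ± 0.821% and 48.8 ± 4.44%.

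**Figure D3:**
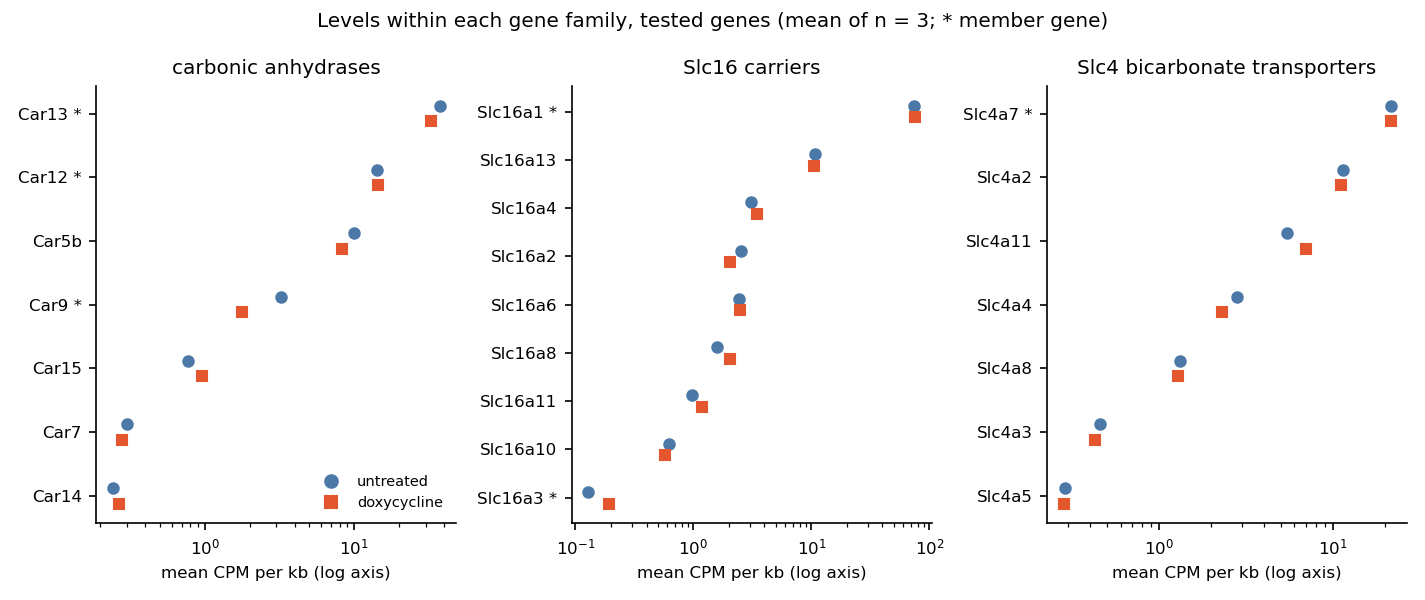
Mean CPM per kilobase (log axis, n = 3 libraries per group) of the tested genes in 3 families, untreated as blue circles and doxycycline as orange squares, with member genes marked by an asterisk. Car13, Slc16a1 and Slc4a7 lead their families, and Slc16a3 is the lowest tested Slc16 carrier, at 0.128 and 0.193 CPM per kilobase.

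Other genes of acid handling were taken from 8 lists with 112 genes, of which 74 were tested. Of these, 2 were called higher and 4 lower, where 0.925% of all 13084 tested genes were called higher and 2.16% lower. The median log2 fold change of the 74 was -0.01, against 0.002 over all tested genes. The counts called were 0 of 4 for the other carbonic anhydrases, 0 of 9 for the other monocarboxylate carriers and ancillary proteins, 0 of 8 for the sodium-proton exchangers and their regulators, 0 of 20 for the vacuolar proton pump and 0 of 5 for the acid and lactate receptors (edgeR). At an unadjusted p under 0.05 these lists had 1, 3, 3, 3 and 2 genes, and all 8 lists together had 22 of 74, beside 16.2% of all tested genes. Their medians were 0.00, 0.04, -0.02, 0.01 and 0.65. The receptor median rests on genes with low counts: of the 5 tested, only Asic1, an acid-sensing ion channel, exceeded 2 CPM, at 5.58 ± 0.585 and 4.93 ± 0.646 CPM (edgeR adjusted p 0.577). The highest members of the other lists in CPM were Nptn (neuroplastin, a relative of Bsg, log2 fold change -0.17, adjusted p 0.12), Chp1 (a calcium-binding protein, 0.03, adjusted p 0.867) and Atp6v1a (the catalytic subunit of the proton pump, -0.01, adjusted p 0.937).

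Among the 8 tested bicarbonate transporters other than Slc4a7, 1 was called higher and 0 lower, with a median log2 fold change of -0.04. Over all tested genes 0.925% were called higher and 2.16% lower. Slc4a11, a membrane transporter that carries protons or hydroxide, had 16.4, 18.6 and 17.4 CPM in untreated replicates 1 to 3 and 21.4, 24.8 and 20.8 CPM in doxycycline replicates 1 to 3. The groups did not overlap (log2 fold change 0.36 ± 0.09 SE, edgeR adjusted p 0.0272). Slc4a11 lost this call without untreated replicate 1, 2 or 3 (adjusted p 0.178, 0.0544 and 0.139) and without doxycycline replicate 2 (0.072).

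In the list of lactate and pyruvate conversion 2 of 13 tested genes were called lower and 1 higher, with a median of -0.02. The shares over all tested genes were 2.16% lower and 0.925% higher. Ldha, the lactate dehydrogenase subunit that favours lactate, had 1280, 1260 and 1280 CPM in untreated replicates 1 to 3 and 1080, 1110 and 1070 CPM after doxycycline (log2 fold change -0.23 ± 0.04 SE, edgeR adjusted p 0.00217). Pdk1, the kinase that switches off pyruvate dehydrogenase, fell from 85.6 ± 6.58 to 64.3 ± 3.83 CPM (log2 fold change -0.41, edgeR adjusted p 0.000342). Pdp2, a phosphatase that switches the same enzyme on, rose from 44.7 ± 1.1 to 55.5 ± 2.55 CPM (log2 fold change 0.31, edgeR adjusted p 0.00349). These 3 calls held in all 16 alternatives each. The log2 fold changes of Ldha and of the lactate carrier Slc16a1 were thus -0.23 and 0.03, and the difference between them was not tested.

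Of 7 tested genes for the subunits of hypoxia-inducible factors and their hydroxylases, 2 were called lower and 0 higher (median log2 fold change -0.08). Beside them, 2.16% of all tested genes were called lower and 0.925% higher. Egln3, an oxygen-dependent prolyl hydroxylase that marks the factor for destruction, had 117, 110 and 123 CPM in untreated replicates 1 to 3 and 85.0, 80.4 and 73.9 CPM in doxycycline replicates 1 to 3 (log2 fold change -0.55 ± 0.06 SE, edgeR adjusted p 4.08e-06). Egln1, the main enzyme of the same kind, fell from 105 ± 4.69 to 87.8 ± 1.55 CPM (log2 fold change -0.26, edgeR adjusted p 0.00541), a call lost without untreated replicate 3 (adjusted p 0.0843). RNA of the subunit Hif1a did not differ detectably (366 ± 7.78 and 347 ± 19.6 CPM, log2 fold change -0.08, edgeR adjusted p 0.437). These are RNA levels, and whether the activity of the factor changed, in either direction, was not tested.

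**Figure D4:**
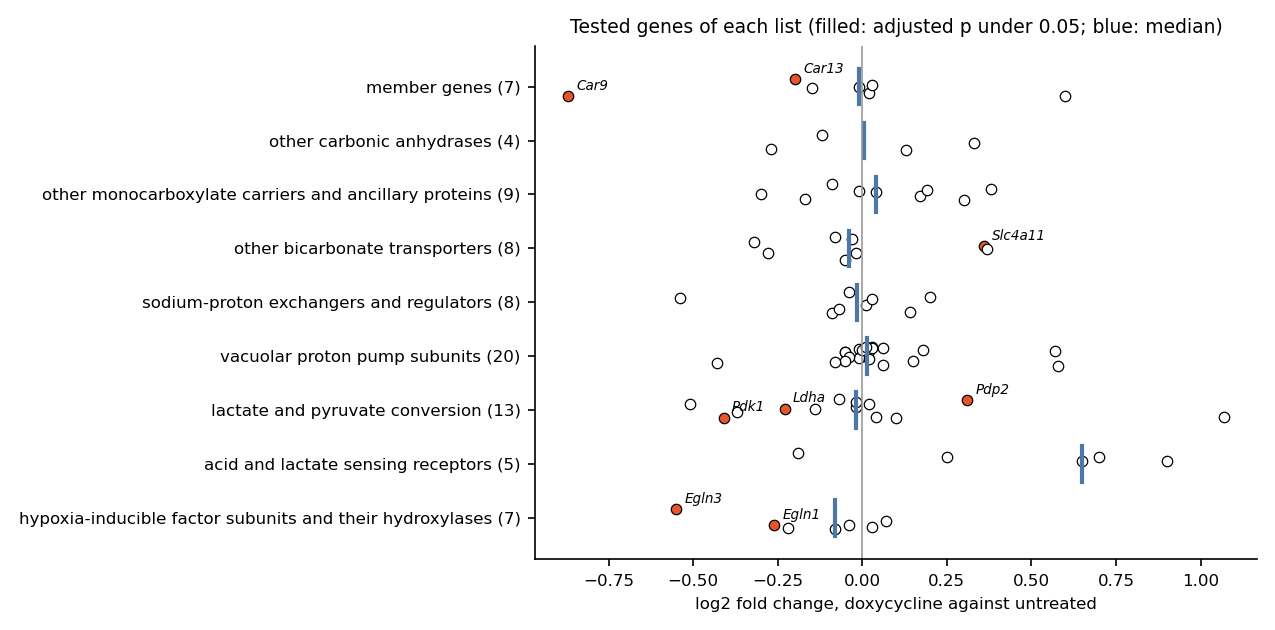
Each point is a tested gene, placed by its log2 fold change (doxycycline against untreated) in the row of its list, with the number tested in brackets, filled and named where the adjusted p was under 0.05, and a blue bar at the list's median. Vertical scatter within a row has no meaning. Car9 lies farthest to the left of all points, at -0.87.

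The genes whose profile over the 6 libraries was nearest to that of a called member were found by the root mean square difference of log2 CPM, each gene centred on its own mean, among 11656 genes with a mean of at least 1 CPM. For Car9 these were Mpp2, a membrane scaffold protein (0.0562 log2 units), Ephx1, an epoxide hydrolase (0.061), and Ccng2, cyclin G2 (0.113), where the median over all genes was 0.465. Their log2 fold changes were -0.87, -0.86 and -0.70. For Car13 the nearest were the transcription factor Tcf4 (0.0143), the hedgehog-binding protein Hhip (0.022) and the transcriptional regulator Cited2 (0.0228), against a median of 0.146, with log2 fold changes of -0.20, -0.23 and -0.21. Genes found this way must share the member's direction, so their fold changes are a description. The edgeR calls of Tcf4, Hhip and Cited2 were lost in 4, 3 and 3 of the 6 fits that left out a library, with the highest adjusted p (0.174, 0.15 and 0.194) without untreated replicate 3.

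Library totals ran from 33537520 to 43631312 counts in the untreated group and from 31653464 to 41264244 in the doxycycline group. Doxycycline replicate 2 held the largest share of the ribosomal RNA precursor Rn45s, 12.11% against 8.834 to 11.04% in the other libraries. Untreated replicate 2 had the largest share of its own group, at 11.04%. Doxycycline replicate 2 was also the lowest doxycycline library for 5 of the 7 tested members (Car12, Car13, Slc16a1, Bsg and Slc4a7). Without it the log2 fold changes of Car9 and Car13 were -0.91 and -0.16 (edgeR adjusted p 0.000256 and 0.056). All 8 epithelial markers were tested (summed level 1840 to 1920 CPM untreated, 1790 to 2020 CPM doxycycline), of which Krt19 was lower (log2 fold change -0.31, edgeR adjusted p 0.00782) and the other 7 were not called, at log2 fold changes from 0.01 (Krt7) to 0.33 (Cldn7). Markers of leukocytes and endothelial cells summed to less than 1 CPM each, and erythroid markers had 0 counts. Of the 4 fibroblast markers, Pdgfra made up nearly all of the sum and was lower (36.7 and 27.8 CPM, edgeR adjusted p 0.000952), Col1a1 had at most 20 counts and missed the threshold (-0.68 on the log2 scale, edgeR adjusted p 0.608), Dcn had at most 4 counts and Lum had 0. The part of Pdgfra and Krt19 in the values of the members was not tested.

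**Figure D5:**
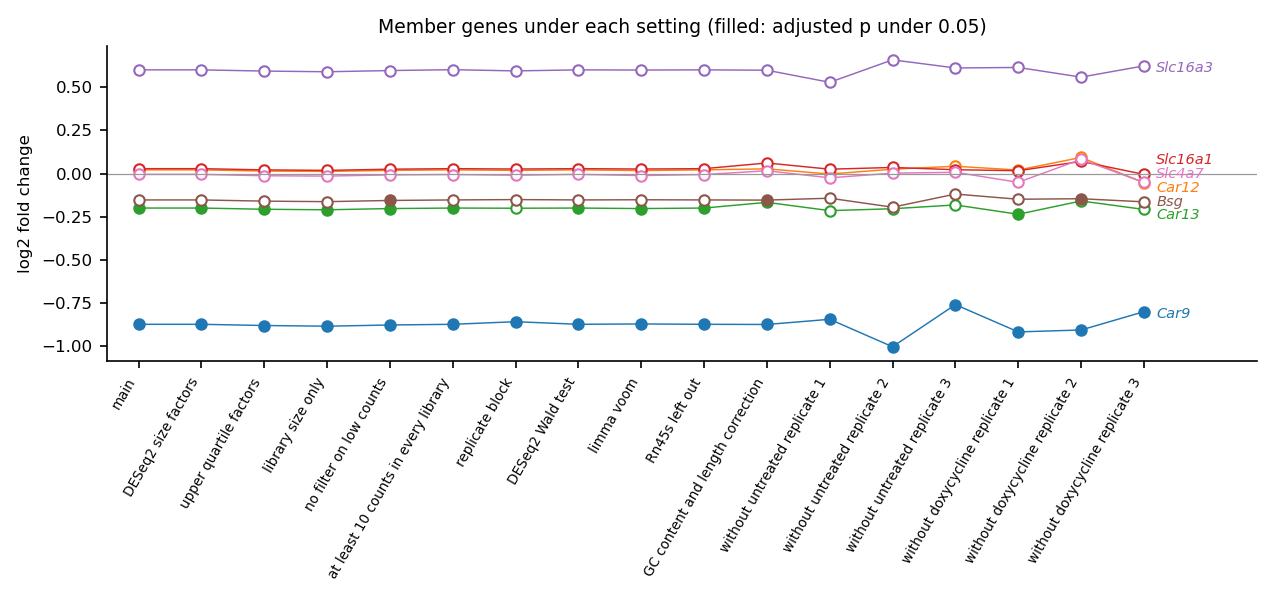
Lines follow the log2 fold change of each tested member through the main analysis and 16 alternatives, with filled points where the adjusted p was under 0.05. Car9 is filled throughout, from -1.003 to -0.759, Car13 and Bsg change sides of the threshold, and Slc16a3 stays between 0.53 and 0.66 with open points.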

How the data were processed

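RNA was depleted of ribosomal RNA and made into libraries with a dUTP kit. The authors aligned reads with STAR to mm10/GRCm38 and deposited raw read counts per gene from featureCounts (Subread 1.6.2, per the submitters' processing notes), without normalization. Strand setting and handling of multiply mapped reads are not given in the sources used here. Groups and replicate numbers come from the sample titles. No source says that libraries came from separate cultures, beyond the word biological triplicates in the study, so p-values measure the spread between these libraries.

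Counts were tested with the quasi-likelihood test of edgeR 4.0.16 (R 4.3.3, robust, TMM scaling, filterByExpr) over all 13084 genes passing the filter, two-sided, with Benjamini-Hochberg adjustment at 0.05. The study used DESeq2, here an alternative (1.42.0) beside limma 3.58.1 voom. CPM use TMM-scaled totals. SEs were derived from each log2 fold change and its F statistic, and 95% intervals use its t distribution. Profiles used a prior count of 2. Lengths and coordinates are from GENCODE M21, start regions from RefSeq.

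Named genes are the members, up to 3 called genes of each list (otherwise its highest in CPM) and 3 nearest profiles per called member. Hif1a, the marker genes given with values and the family shares and sums were chosen after their values were seen. Members and lists were chosen with earlier results of these data known. Replicate pairs differed by 6.138 to 22.06 chi-square units per degree of freedom, more than counting noise, so no pair was treated as repeat deposits of 1 library. This does not show that the libraries are independent cultures.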

Additional observations from a re-analysis of the deposited data

How the results depend on the processing

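The call of Car9 and the absence of a call for Car12, Slc16a1, Slc16a3 and Slc4a7 held in all alternatives that gave an adjusted p. Car2 was not tested. No alternative called a member higher. Both within-library ratios kept their direction in their 7 alternatives each. This could not come out otherwise, because the groups did not overlap in either ratio. The number of members called lower was 1 with the replicate block and ran from 1 to 2 when a library was left out, as Car13 and Bsg changed sides of the threshold. Car13 had a log2 fold change of -0.201 (adjusted p 0.0501) with the replicate block and of -0.236 to -0.159 with a library left out. Bsg was called at -0.156 without a filter and at -0.154 with the GC content and length correction, and ran from -0.195 to -0.119 with a library left out. Values near 0 changed sign: Car12 ran from -0.053 to 0.093, Slc16a1 from -0.005 to 0.07 and Slc4a7 from -0.052 to 0.082 with a library left out, and Slc4a7 was 0.016 with the correction. Same-numbered libraries did not deviate together over the tested genes (correlations of -0.04, -0.004 and 0.018). Of the 6 libraries, 1 correlated best with its own number in the other group. The Rn45s share had the same replicate order in both groups, with 1 lowest and 2 highest (8.834 and 11.04% untreated, 9.597 and 12.11% doxycycline). Whether same-numbered libraries shared a batch cannot be told from so few libraries. The block gave 118 genes higher and 300 lower over all genes.

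Over all genes, 210 were higher and 439 lower without a filter, and 382 and 426 with the correction, an alternative chosen after seeing the data like leaving out Rn45s, for which 96.3% of tested genes had values. With a library left out, 44 to 269 were higher and 116 to 487 lower, lowest without untreated replicate 3 and highest without doxycycline replicate 2. The cause was not tested. At 20 to 36 counts per library, Slc16a3 could not show a change of the size seen for Bsg.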
